A study of Mus musculus with 6 samples.

Results

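Matricellular proteins are secreted into the extracellular matrix and regulate how cells attach to it, and most of them contribute little to its mechanical structure. The set described here holds 10 genes of this kind: the thrombospondins Thbs1, Thbs2 and Thbs3, the tenascin Tnc, Sparc and its relative Sparcl1, the fasciclin domain proteins Postn and Tgfbi, osteopontin (Spp1) and fibronectin (Fn1), which is itself a structural glycoprotein that matricellular proteins bind. They were chosen by name, as probe sets whose single gene symbol in the platform annotation is one of the 10. Of these, 9 were measured, by 19 probe sets among 18193 genes in all. No probe set carried Spp1 as its single symbol in that annotation, and Spp1 was not analysed here.

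Affymetrix arrays were hybridised with total RNA of AC29 and AB1 cells, mouse lines of malignant mesothelioma, a cancer that arises from the cells covering the pleura and peritoneum. AC29, of the CBA strain, was used at passage 60, and AB1, of the BALB/c strain, at passage 40. Both source mice are labelled female and 6 to 8 weeks old, neither line was treated, and both grew in the same medium with 5% foetal calf serum to 80% confluency. Each line was sampled from 3 flasks, with 1 array per flask. The p-values therefore measure the spread between flasks of 1 line, and an effect of the line, its mouse strain, its passage or a batch of processing cannot be told apart.

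All values are deposited log2 intensities, and differences are AC29 minus AB1. Pearson's r across genes lay between 0.995 and 0.997 within AC29, between 0.997 and 0.998 within AB1 and between 0.937 and 0.938 between the lines. The second principal component, with 2.86% of the variance, set AC29 replicate 14 apart from the other arrays. The floor, 6.07, is the 95th percentile of 86 probe sets for olfactory, vomeronasal and taste receptor genes. Where no array of a line exceeded it, a fold is given as a lower bound. A gene was called where limma's adjusted p was under 0.05 and the difference at least 2-fold. That held for 10.9% of all genes tested, 5.12% being higher in AC29 and 5.82% higher in AB1. Of 16 mesothelial markers, 12 were called higher in AC29 and 2 higher in AB1. Msln, Krt18, Pdpn, Calb2, Efemp1 and Cdh2 were above the floor in both lines. Krt19, called higher in AC29 (12.14 in AC29 and 6.15 in AB1), was above the floor on 3 AC29 and 2 AB1 arrays. Wt1, Upk3b, Krt8, Krt7, Muc16, Lrrn4, Gpm6a and Bnc1 were not above it in AB1, and Thbd was not above it in AC29. The 2 called higher in AB1 were Thbd (4.31 in AC29 and 9.02 in AB1) and Cdh2 (8.81 in AC29 and 10.46 in AB1). Of 14 macrophage markers, 10 were above the floor on no array, among them the defining Ptprc and Adgre1. Csf1r was above it in both lines, and Cd14 was called higher in AB1 (7.26 in AC29 and 9.02 in AB1). Cd68 was above it only in AB1 (6.03 in AC29 and 6.68 in AB1). Lyz2 was above it only in AC29 (6.31 in AC29 and 5.83 in AB1), and neither of these was called. Of 10 endothelial markers, 7 were above it on no array, among them Pecam1 and Cdh5, while Kdr and Egfl7 were above it in both lines and Esam was called higher in AC29 (10.59 in AC29 and 6.17 in AB1). Of 8 lymphocyte markers, 5 were above it on no array, and Cd3e, Cd4 and Cd8a were above it in both lines and not called.

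Thrombospondins bind cell surface receptors such as CD47, CD36 and integrins, and thrombospondin-1 can activate latent TGF-beta. SPARC binds collagen and loosens cell contacts with the matrix, tenascin-C counteracts adhesion to fibronectin, and periostin and the protein encoded by Tgfbi bind integrins through fasciclin domains. In cultured fibroblasts several of these genes are known to respond to TGF-beta.

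Of the 9 measured members, 4 were called, against 10.9% of all genes tested. These were Thbs1, Thbs2, Sparcl1 and Tgfbi, all higher in AB1, where 5.82% of all genes were called higher. No member was called higher in AC29, against 5.12% of all genes. With no minimum fold, 8 of the 9 differed at an adjusted p under 0.05, as did 39.1% of all genes tested, and 3 of these, Sparc, Thbs3 and Tnc, were higher in AC29. For 8 members no AC29 array fell within the range of AB1 or the reverse, which also held for 50.1% of all genes tested. The median difference over the 9 members was -0.60 on the log2 scale, and that over all genes tested was -0.0047. Of the 4 called members, only Thbs1 and Thbs2 were above the floor on 3 arrays or more. Sparcl1 was above it on no array and Tgfbi on 1 array, so 7 of the 9 passed such a filter, and among all genes that passed it 16.5% were called.

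Markers of fibroblasts and contractile stromal cells were examined beside these members. Of 11 measured, 0 were called higher in AC29 and 2 higher in AB1, against 5.12% and 5.82% of all genes tested. Of the 11, 5 were above the floor on no array. Acta2, smooth muscle actin, averaged 6.53 in AC29 and 13.22 in AB1, and Pdgfrb, a receptor of mesenchymal cells, 4.96 in AC29 and 9.11 in AB1. Pdgfra (9.44 in AC29 and 9.29 in AB1), Cd34 (10.87 in AC29 and 10.75 in AB1) and S100a4 (13.65 in AC29 and 13.86 in AB1) were not called. Those uncalled markers were above the floor in both lines. Acta2 and Pdgfrb moved in the direction of Thbs1 and Thbs2, and their part in those results was not tested.

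**Figure D1:**
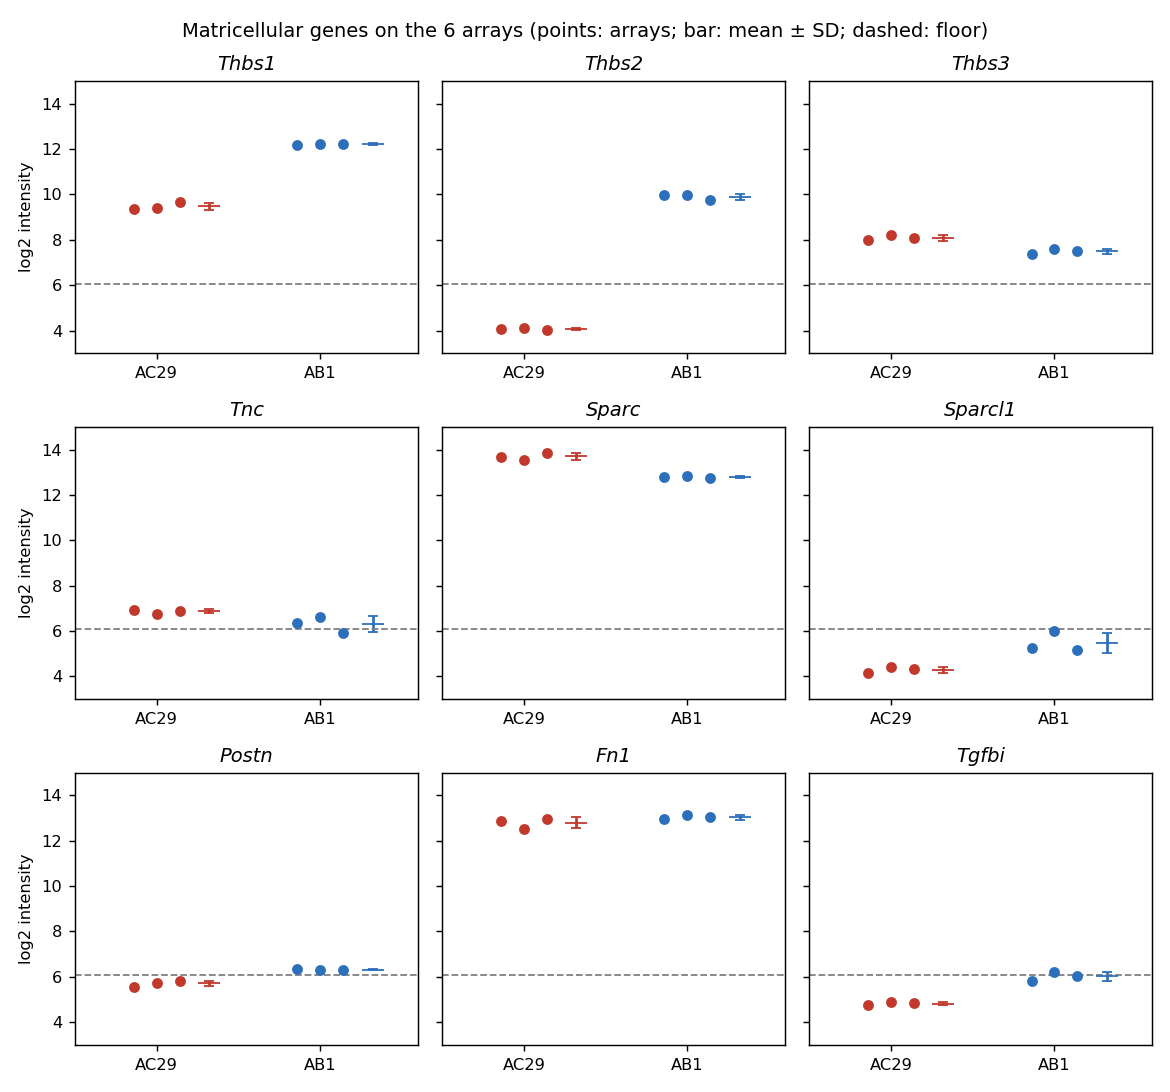
Log2 intensity of the 9 measured matricellular genes on each array, by the brightest probe set of each gene, with points for arrays, bars for the mean and SD over 3 arrays, and a dashed line for the floor at 6.07. Thbs1 and Thbs2 lie far lower in AC29, while Sparc and Thbs3 lie slightly higher there, and Fn1 overlaps between the lines.

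Thbs2 and Thbs1 had the largest differences among the members, and Thbs3 had one of the smaller ones. Thbs2, a trimeric thrombospondin known to restrain blood vessel growth and to take part in collagen fibril assembly, was not above the floor in AC29 and was clearly detected in AB1. Its brightest probe set read 4.08, 4.12 and 4.05 on the AC29 arrays, against 9.97, 9.97 and 9.76 on the AB1 arrays. The groups were far apart, with all 3 AC29 arrays under the floor. Thbs2 was at least 14.2-fold lower in AC29 (log2 difference -5.82 ± 0.09, SE; limma adjusted p = 3.49e-10), a difference exceeded in size by 0.264% of all genes. The bound depends on the floor and was 18.6-fold at its 90th percentile and 6.37-fold at its 99th. The other probe sets of Thbs2, adjusted over all probe sets, differed by -3.62 (adjusted p = 1.81e-07) and -3.50 (adjusted p = 4.61e-07), again with no AC29 array above the floor.

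Thbs1, the trimeric thrombospondin found in platelets and many cultured cells, was detected in both lines and was lower in AC29. It read 9.38, 9.41 and 9.66 on the AC29 arrays, against 12.18, 12.24 and 12.24 on the AB1 arrays. The AC29 arrays were all well below the AB1 arrays, and within AC29 replicate 15 was the highest. The difference was -2.74 ± 0.10 (SE, 95% interval -2.96 to -2.52), 6.67-fold, with an adjusted p of 3.57e-08 from limma. A second Thbs1 probe set differed by -2.72. A further probe set lists Thbs1 together with another gene and was left out.

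Thbs3, a pentameric thrombospondin known from cartilage and bone, went the other way and by less. It read 7.98, 8.21 and 8.07 in AC29, against 7.40, 7.59 and 7.49 in AB1, by its only probe set. The AC29 arrays were all above the AB1 arrays. The difference of 0.60 ± 0.10 (SE, 95% interval 0.38 to 0.81), 1.51-fold, had a limma adjusted p = 0.000814 but did not reach the 2-fold minimum. The remaining members of the family, Thbs4 and Comp, which like Thbs3 form pentamers, exceeded the floor in neither line.

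The RefSeq table of promoter sequences (build GRCm38.p6) held 7 of the 10 members in 10 windows; Thbs1, Sparcl1 and Fn1 were not among them. The 250 bases before the transcription start are shown for Thbs2, the member with the largest difference, for its paralogue Thbs3, which differed in the opposite direction, and for Sparc, the member with the largest difference toward AC29. Thbs3 and Sparc, which were not called, were chosen after their values were seen. Capitals mark TATAAA, the TATA box letters, and CAGAC, the Smad box letters, on either strand.
Thbs2 (chr17:14694263-14694512, minus strand): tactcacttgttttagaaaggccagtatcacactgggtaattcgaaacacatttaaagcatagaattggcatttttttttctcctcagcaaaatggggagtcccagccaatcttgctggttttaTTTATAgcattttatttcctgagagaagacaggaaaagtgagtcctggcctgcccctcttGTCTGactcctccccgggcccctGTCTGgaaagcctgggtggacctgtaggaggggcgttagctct
Thbs3 (chr3:89214930-89215179, plus strand): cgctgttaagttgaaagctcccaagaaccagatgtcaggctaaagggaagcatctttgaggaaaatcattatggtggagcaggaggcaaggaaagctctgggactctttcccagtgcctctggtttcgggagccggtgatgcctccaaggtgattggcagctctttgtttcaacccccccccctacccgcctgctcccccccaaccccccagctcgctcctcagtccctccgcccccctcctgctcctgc
Sparc (chr11:55420081-55420330, minus strand): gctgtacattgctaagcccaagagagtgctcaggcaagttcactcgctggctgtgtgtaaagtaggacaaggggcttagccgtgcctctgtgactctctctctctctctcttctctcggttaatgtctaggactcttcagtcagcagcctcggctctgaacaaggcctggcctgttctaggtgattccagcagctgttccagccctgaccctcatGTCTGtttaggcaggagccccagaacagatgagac
The Thbs2 window held TATAAA on the reverse strand, beginning 126 bases before the start, and CAGAC at 66 and 43 bases before it, in both cases on the reverse strand. The Thbs3 window held neither, and the Sparc window held CAGAC 35 bases before the start, also on the reverse strand. CAGAC was found in 7 of the 10 member windows and in 42.2% of all 32851 windows, and TATAAA in 5 of the 10 and in 12.4% of all. The E-box letters CANNTG were found in 7 of the 10 and in 66.2% of all. The AP-1 letters TGANTCA and the TEAD letters CATTCC were found in 0 of the 10, and in 6.75% and 12.6% of all windows. Some member windows belong to the same gene and overlap, and a match is a description of these letters only.

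Sparc did not pass the rule but had the largest difference toward AC29 among the members. It encodes a collagen-binding glycoprotein that is abundant in matrix-producing cells. It read 13.66, 13.56 and 13.87 in AC29, against 12.80, 12.81 and 12.74 in AB1. All AC29 arrays were above all AB1 arrays. The difference was 0.91 ± 0.10 (SE, 95% interval 0.69 to 1.13), 1.88-fold, with a limma adjusted p = 6.72e-05. A second bright probe set differed by 0.998 ± 0.09 (adjusted p = 3.53e-05 over all probe sets), which lies next to the minimum of 1. Another, dimmer one did not pass, with 7.04 in AC29 and 6.97 in AB1 (difference 0.06, adjusted p = 0.716). The probe sets of this gene thus gave unequal differences.

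Sparcl1, also called hevin, is a relative of SPARC known from brain and blood vessels. It was called higher in AB1, but all of its values lay under the floor. Sparcl1 read 4.15, 4.41 and 4.31 in AC29, against 5.27, 5.99 and 5.18 in AB1. The lines did not overlap, and AB1 replicate 5 lay above the other arrays. The difference was -1.19 ± 0.19 (SE; limma adjusted p = 0.000906). Without AB1 replicate 5 it was -0.94, under the 2-fold minimum. No fold is given, since neither line was above the floor. Among the more distant relatives of SPARC, Spock2, a proteoglycan with a SPARC-like calcium binding domain, averaged 9.85 ± 0.40 in AC29 and 5.81 ± 0.10 in AB1 (SD, n = 3), at least 13.7-fold higher in AC29 (limma adjusted p = 1.51e-07). Fstl1, a secreted follistatin-like glycoprotein, was bright in both lines and not called, with means of 12.28 in AC29 and 12.52 in AB1. Spock1, Spock3 and Smoc2 exceeded the floor in neither line, and Smoc1 was above it in both and not called.

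Fibronectin was bright in both lines and did not pass the test. Fn1 encodes the glycoprotein whose fibrils carry the cell-binding RGD site. It read 12.89, 12.53 and 12.98 in AC29, against 12.93, 13.15 and 13.03 in AB1. The groups overlapped, and the lowest array was AC29 replicate 14. The difference was -0.24 ± 0.13 (SE; limma adjusted p = 0.182), and its 95% interval, -0.52 to 0.05, does not reach the 2-fold minimum. Without AC29 replicate 14 the difference was -0.10, which leaves the result uncalled. A second, dimmer probe set varied widely between AC29 flasks, at 8.79, 9.72 and 7.81, against 9.25, 9.33 and 9.67 in AB1. Its difference was -0.64 with a 95% interval of -1.52 to 0.24, so a difference above 2-fold toward AB1 lies inside that interval.

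Tenascin-C and the fasciclin domain proteins lay near the floor. Tnc, which encodes a large hexameric glycoprotein induced in wounds and tumour stroma, read 6.94, 6.77 and 6.89 in AC29, against 6.37, 6.62 and 5.92 in AB1. The AC29 arrays were above the AB1 arrays, of which replicate 6 was under the floor. The difference was 0.56 ± 0.16 (SE; limma adjusted p = 0.0205), 1.48-fold. It lost that p without AC29 replicate 13 (adjusted p = 0.0663) or replicate 15 (adjusted p = 0.0555), in the fit without moderation (adjusted p = 0.129) and on the mean of its probe sets (0.27, adjusted p = 0.0765). The other Tnc probe set was not above the floor on any array. The tenascins Tnr and Tnxb exceeded the floor in neither line, and Tnn read 6.04 in AC29 and 5.90 in AB1.

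Postn, which encodes periostin, a protein of collagen-rich and periosteal tissue, was above the floor only in AB1 and only slightly. It read 5.57, 5.74 and 5.82 in AC29, against 6.34, 6.28 and 6.31 in AB1. The groups did not overlap, and the difference of -0.60 ± 0.09 (SE; limma adjusted p = 0.000594) was at least 1.18-fold and not called. Tgfbi, which encodes a secreted protein named for its induction by TGF-beta, was called higher in AB1. It read 4.74, 4.88 and 4.83 in AC29, against 5.81, 6.21 and 6.06 in AB1, where only replicate 5 exceeded the floor. The difference was -1.21 ± 0.11 (SE; limma adjusted p = 2.43e-05), and against the floor the bound was only 1.03-fold. All 4 Tgfbi probe sets were called higher in AB1, with differences between -2.26 and -1.21, and no AC29 value of any of them was above the floor. In AB1 none of them exceeded the floor on more than 1 array, and the one at -2.26 exceeded it on no array. With the floor at its 99th percentile, 7.23, neither line was above it for Tnc, Postn, Sparcl1 or Tgfbi.

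**Figure D2:**
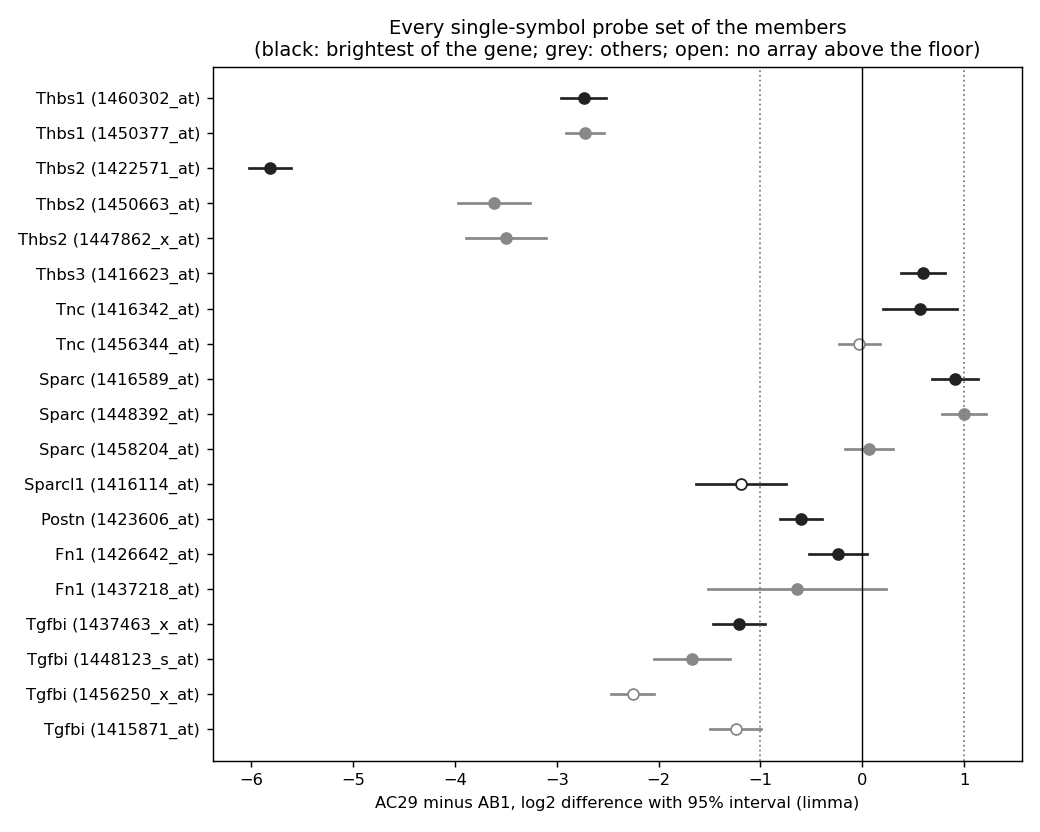
Difference AC29 minus AB1 on the log2 scale with its 95% interval from limma, for each of the 19 single-symbol probe sets of the members (black for the brightest of a gene, grey for the others, open for those above the floor on no array, dotted lines for the 2-fold minimum). Both probe sets of Thbs1 lie together near -2.7, the 3 of Thbs2 lie between -5.82 and -3.50, and the bright ones of Sparc lie close to the right dotted line.

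The other probe sets of the members mostly had the direction of the brightest. Beyond the brightest, the members had 10 other probe sets. Of the 7 with at least 1 array above the floor, 7 differed in the same direction as the brightest, and of the 3 with none, 2 did. Over all probe sets outside the controls, 8.69% were called. The exception was the dim probe set of Tnc, whose difference was -0.03. An exact permutation test on the arrays of a single gene cannot go below p = 0.1 with 3 against 3 (2-sided, 20 splits). It gave 0.1 for the 8 members whose arrays did not overlap and 0.2 for Fn1.

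**Figure D3:**
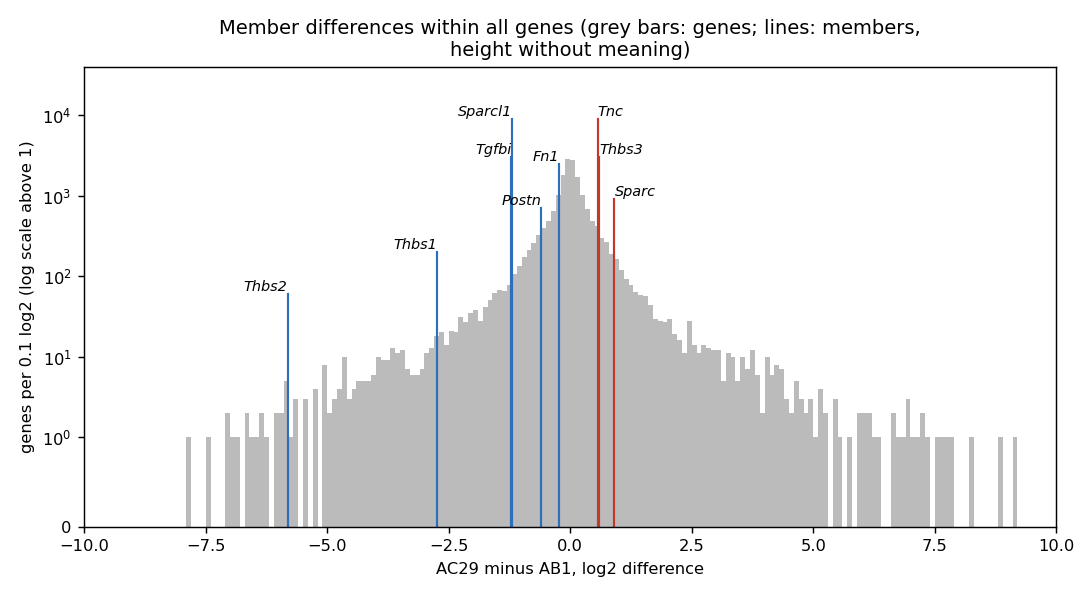
Number of genes by log2 difference AC29 minus AB1, in bins of 0.1, over all 18193 genes, with the 9 members marked by vertical lines whose height has no meaning, on a y axis that is logarithmic above 1. Thbs2 and Thbs1 lie in the left tail, where 0.264% and 2.28% of genes differed by more in either direction, and Fn1 lies within the central peak.

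Related secreted proteins were examined in a list of 31 measured genes of the thrombospondin, tenascin, SPARC, CCN, galectin and neighbouring families. Of these, 2 were called higher in AC29, 6 higher in AB1 and 23 were not called. Among all genes tested, 5.12% were called higher in AC29 and 5.82% higher in AB1. For 14 of the 31, no array exceeded the floor. The median difference was -0.11 for the list and -0.0047 for all genes tested. Of 6 CCN genes, which encode matricellular regulators of adhesion and growth factor activity, Ccn2 and Ccn3 were called higher in AB1 and Ccn4 higher in AC29. Ccn1 was not called, and Ccn5 and Ccn6 exceeded the floor in neither line. Ccn2, known as connective tissue growth factor, read 8.86, 8.77 and 8.61 in AC29, against 13.43, 13.46 and 13.25 in AB1, 24.8-fold lower in AC29 (limma adjusted p = 1.85e-09). Ccn3 was not above the floor in AC29 and read 10.12 ± 0.09 (SD, n = 3) in AB1, at least 16.5-fold lower in AC29. Ccn4, a Wnt-induced member, was 11.6-fold higher in AC29, where it read 11.83, 11.84 and 11.83, against 8.32, 8.34 and 8.23 in AB1. The difference of Ccn1, at 11.04 in AC29 and 12.01 in AB1, stayed under the 2-fold minimum. Of the integrin-binding proteins with fibulin or milk-fat-globule domains, Fbln5 was 5.56-fold and Mfge8 3.89-fold lower in AC29. The galectins Lgals1 and Lgals3, which bind matrix glycans, were not called. Lgals1 averaged 14.23 in AC29 and 14.60 in AB1, and Lgals3 averaged 13.02 in AC29 and 13.79 in AB1.

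Receptors for the members were called in both directions. Of 27 measured receptors, 2 were called higher in AC29 and 7 higher in AB1, against 5.12% and 5.82% of all genes tested. Of the 27, 7 were above the floor on no array. The median difference was -0.02. Cacna2d1, a calcium channel subunit that serves as a thrombospondin receptor on neurons, read 4.10, 3.79 and 3.61 in AC29, against 8.26, 8.69 and 8.42 in AB1, at least 5.22-fold lower in AC29 (limma adjusted p = 1.93e-08). Cd47 read 11.69, 11.87 and 11.83 in AC29, against 10.97, 10.95 and 10.82 in AB1. These groups did not overlap, and the 1.85-fold difference (limma adjusted p = 4.61e-05) was under the minimum. Cd36 exceeded the floor in neither line. Lrp1, an endocytic receptor that takes up thrombospondins and signals with calreticulin, was 3.04-fold lower in AC29, while calreticulin itself (Calr) read 13.44 in AC29 and 13.32 in AB1.

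Of the integrin chains that take part in RGD-binding receptors, Itgb5 and Itgb8 were called, both higher in AB1. The fibronectin receptor chains Itga5 (8.14 in AC29 and 8.95 in AB1) and Itgb1 (11.26 in AC29 and 11.79 in AB1) were not called. Itgav (10.95 in AC29 and 10.37 in AB1) and Itgb3 (8.38 in AC29 and 7.65 in AB1), which pair as a receptor for several members, were not called either. Itgb5, an alternative partner of the alpha v chain, was 2.37-fold lower in AC29 (limma adjusted p = 1.77e-05), and Itgb8 was at least 1.82-fold lower there. Itga6, known mainly as a laminin receptor chain, was 2.46-fold lower and Itga3 2.25-fold higher in AC29. Among the syndecans, heparan sulfate co-receptors, Sdc2 was 3.89-fold lower and Sdc1 2.63-fold higher in AC29. Cd44, which binds hyaluronan and osteopontin, was 2.03-fold lower in AC29, next to the minimum.

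The list of genes linked to cleavage, modification and crosslinking of the members held 26 measured genes, most of them enzymes. Of these, 3 were called higher in AC29 and 7 higher in AB1, against 5.12% and 5.82% of all genes tested. The median difference of the list was -0.18. Mmp2, a gelatinase that cleaves fibronectin, was at least 13.1-fold lower in AC29 (5.68 ± 0.10 against 9.79 ± 0.07 in AB1, SD, n = 3; limma adjusted p = 1.85e-09). Furin, a proprotein convertase, was 3.30-fold lower in AC29, and the cathepsins Ctsk and Ctsb were 3.06-fold and 2.44-fold lower. Plaur, the urokinase receptor and no enzyme, was 2.47-fold lower in AC29. Tgm2, the transglutaminase that crosslinks fibronectin, was 10.3-fold higher in AC29 (limma adjusted p = 4.11e-07). The secreted protease Htra1 was 5.65-fold higher and Bmp1, a procollagen proteinase that also acts on other matrix proteins, 2.17-fold higher in AC29. Lox, the oxidase that starts collagen crosslinking, was not called, at 11.49 in AC29 and 10.73 in AB1, nor was the cathepsin inhibitor Cstb, at 12.94 in AC29 and 12.19 in AB1.

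In the TGF-beta list, 3 of 23 measured genes were called higher in AC29 and 6 higher in AB1. Over all genes tested, the shares were 5.12% and 5.82%. The median difference of the list was 0.22. Tgfb2 read 10.37, 9.76 and 10.32 in AC29, against 5.61, 5.89 and 5.79 in AB1, at least 16.9-fold higher in AC29 (limma adjusted p = 4.47e-08). Of 4 latent TGF-beta binding proteins, a family of matrix proteins most of which bind the latent ligand, Ltbp1 was 13.5-fold and Ltbp2 at least 6.10-fold lower in AC29, and Ltbp3 and Ltbp4 were not called. The inhibitory Smad6 was 5.61-fold and the corepressor Ski 2.49-fold higher in AC29. Tgif1, Tgfb1i1 and Thsd4 were lower in AC29. Pmepa1, a negative feedback target of TGF-beta, was 2.17-fold lower in AC29. Tgfb1, whose latent product thrombospondin-1 can activate, was not called, at 8.18 in AC29 and 8.87 in AB1. The receptor Tgfbr2, at 11.55 in AC29 and 10.84 in AB1, and the shared mediator Smad4, at 11.01 in AC29 and 10.68 in AB1, were not called.

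The list of collagens, proteoglycans and other matrix genes linked to the members held 21 measured genes. Of these, 6 were called higher in AC29 and 4 higher in AB1, against 5.12% and 5.82% of all genes tested. The median difference of the list was 0.09. Dcn, which encodes the collagen-binding proteoglycan decorin, averaged 12.81 in AC29 and 5.98 in AB1, where 2 of the 3 arrays were not above the floor, so no exact fold is given (log2 difference 6.82, limma adjusted p = 2.36e-10). The collagen chain Col1a1, which SPARC binds, was 3.24-fold higher in AC29. By their brightest probe sets, the basement membrane chains Col4a1 and Col4a2 were at least 61.1-fold and at least 29.1-fold lower in AC29. A second Col4a1 probe set gave a smaller log2 difference, -3.77, with means of 6.79 in AC29, above the floor, and 10.57 in AB1. The size of the Col4a1 difference thus depends on the probe set. The proteoglycan biglycan (Bgn) was 2.88-fold lower in AC29. Of the fibrillar chains, Col1a2, at 13.88 in AC29 and 13.44 in AB1, and Col5a2, at 13.15 in AC29 and 12.45 in AB1, were not called. Col3a1, another fibrillar chain, was not called either and went the other way, at 11.84 in AC29 and 12.65 in AB1 (log2 difference -0.81). The collagen VI chains Col6a1 and Col6a2 were 7.05-fold and 12.7-fold higher in AC29, while Col6a3 was at least 3.24-fold lower. For the fibulin Fbln1 the brightest probe set gave a value in AC29 at least 3.41-fold above AB1, while a different probe set gave -0.14 (adjusted p = 0.357). The collagen chaperone Serpinh1 was not called, at 12.85 in AC29 and 12.98 in AB1. Of the 46 genes called in these 5 lists, 26 had 45 further probe sets above the floor, of which 1, that of Fbln1, differed in the opposite direction.

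**Figure D4:**
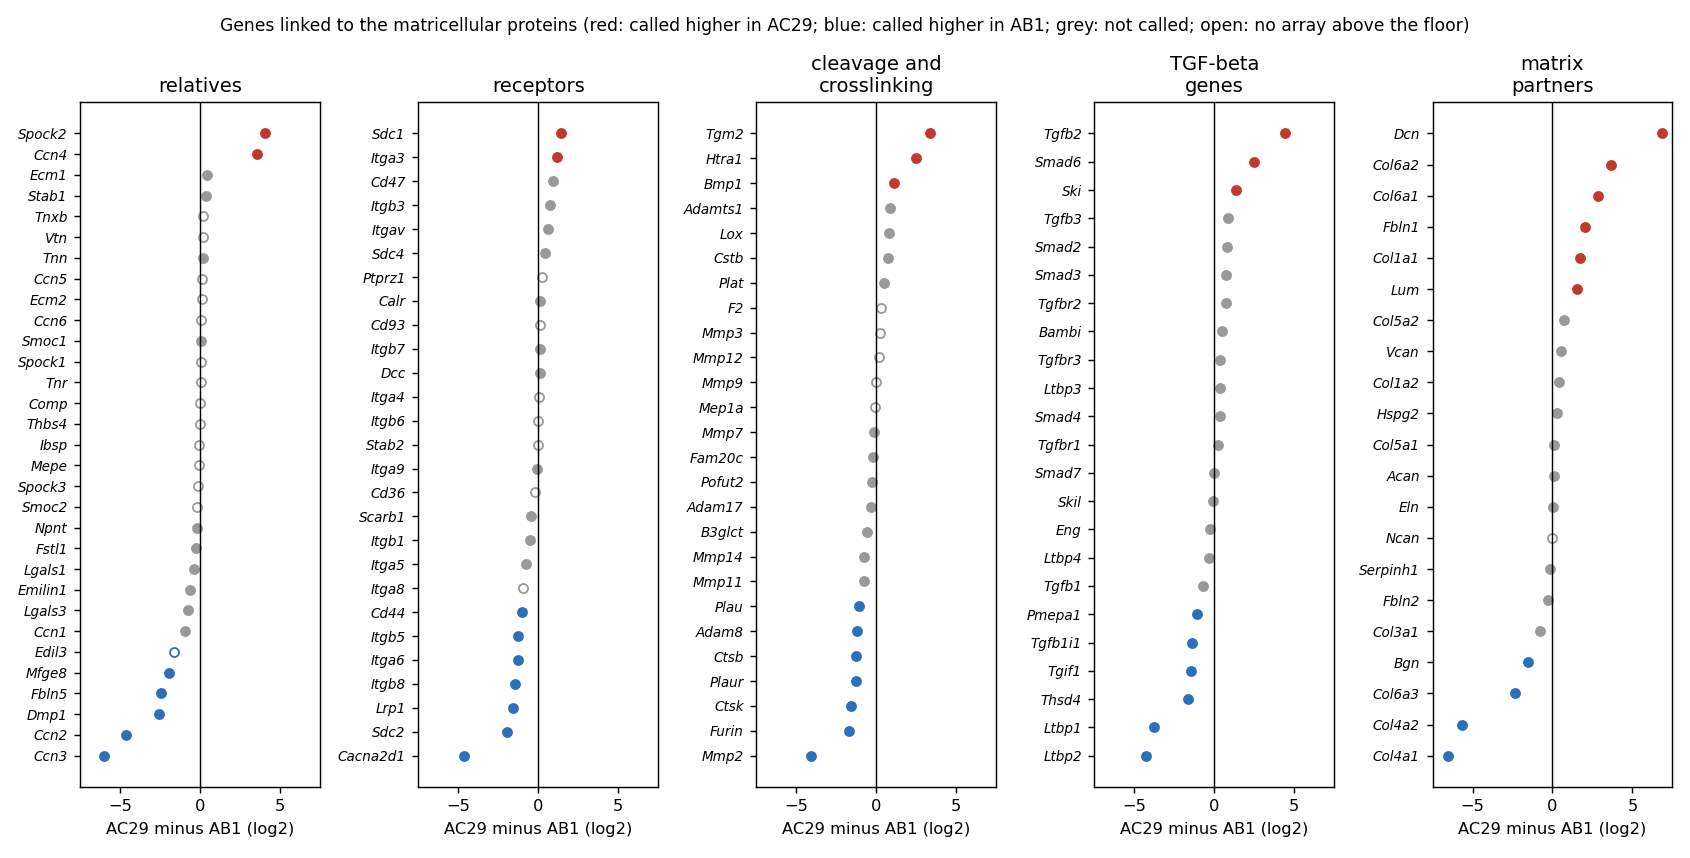
Log2 difference AC29 minus AB1 for the measured genes of 5 lists linked to the matricellular proteins, 1 mark per gene (red for called higher in AC29, blue for called higher in AB1, grey for not called, open for above the floor on no array). Each list holds called genes on both sides, with Ccn3, Cacna2d1, Mmp2, Ltbp2 and Col4a1 at the bottom.

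Genes next to the members in the RefSeq order (GRCm38.p6) were called about as often as genes in general. Of 18 measured protein-coding neighbours, the nearest measured on either side of each member, 2 were called, against 10.9% of all genes tested. Smoc2, next to Thbs2, read 3.72 in AC29 and 3.95 in AB1, under the floor. Rasgrp1 and Fsip1, next to Thbs1, were likewise under the floor, with differences of 0.01 and -0.20. Sparcl1 lies beside a cluster of mineralised tissue genes that runs from Dspp to Spp1. Within it, Dspp, Ibsp and Mepe were not above the floor, and Dmp1 was called higher in AB1 (3.13 ± 0.08 in AC29 against 5.73 ± 0.53 in AB1, SD, n = 3), with 1 AB1 array above the floor. Nudt9, on the other side of Sparcl1, was called higher in AB1 (difference -1.09, limma adjusted p = 5.42e-06), and Supt20, next to Postn, was called higher in AC29 (1.01, limma adjusted p = 1.43e-05).

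The spread between flasks differed among the members. The SD over 3 arrays ran from 0.04 for Thbs2 to 0.23 for Fn1 in AC29, and from 0.03 for Postn to 0.44 for Sparcl1 in AB1. Averaged over the 9 members, the deviation of an array from its line's mean was between 0.0819 and 0.105 in AC29 and between 0.0935 and 0.151 in AB1, with AB1 replicate 5 the highest. AC29 replicate 14, the array set apart by the second component, had the highest mean deviation within AC29.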

How the data were processed

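The deposited values of the authors are log2 intensities of 45101 probe sets on each of the 6 arrays. GCOS, RMA and Partek 6.4 are named in the submitters' processing notes, and what each did is not given in the sources used here. The log2 scale was taken from the range of the values and from RMA, which corrects background, normalizes arrays by quantiles and compresses the differences of very dim and very bright probe sets. Array values have no depth, and precision is limited by the number of arrays.

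The 64 control probe sets were left out. The platform annotation gave 1 symbol to 34945 probe sets, several to 932 and none to 9160, and of several single-symbol probe sets the one brightest on average stood for the gene. A linear model with line as its term was fitted to all probe sets with limma 3.58.1 in R 4.3.3 (lmFit, eBayes, 2-sided), with Benjamini-Hochberg adjustment over 18193 genes. The moderated degrees of freedom were 8.92. Figures were drawn with matplotlib 3.10.9.

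The members, the gene lists and the tests were chosen with earlier results of these data known. Genes were named by rule: every member, in the 5 linked lists the 4 called genes with the largest differences in either direction and the 2 brightest uncalled ones, and further list genes where a member is their ligand, substrate or relative. Col3a1 was named in addition, since its direction was opposite to that of the other fibrillar chains named. Promoter windows were trimmed to the 250 bases before the start. Markers were examined for mesothelium (12 of 16 called higher in AC29 and 2 in AB1), macrophages (0 and 1 of 14), lymphocytes (0 and 0 of 8), endothelium (1 and 0 of 10) and fibroblasts (0 and 2 of 11).

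Data were simulated for 18193 genes from the mean of each gene over the 6 arrays and its spread within the lines. With 50 changed genes per size, log2 changes of 1, 1.5, 2 and 4 were called in 42%, 96%, 98% and 100% of cases. Of 17993 unchanged genes, 0 were called. A change of 1 equals the minimum of the call rule, and no effect of strain, passage or batch was simulated. Alternatives covered normalization, the filter on dim genes, the choice of probe set, moderation, array weights, the call rule, the floor and leaving out each array. Scan dates were not analysed here.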

Additional observations from a re-analysis of the deposited data

How the results depend on the processing

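Under every alternative run, each of the 9 members kept its direction, and Thbs1 and Thbs2 stayed called, with differences of -2.76 to -2.72 and -5.83 to -4.31 outside the fits that left out an array. No alternative normalization moved the median difference of all genes by over 0.1. With no minimum difference, Thbs3 (0.60), Tnc (0.56), Sparc (0.91) and Postn (-0.60) passed, giving 3 members higher in AC29, and 3475 of all genes were then higher in AC29, with 3630 in AB1. Of the relatives, 3 were then higher in AC29 and 11 in AB1, and of the receptors 6 were higher in AC29 and 11 in AB1. The cleavage and crosslinking list then had 7 genes higher in AC29 and 12 in AB1. Of the TGF-beta genes, 10 were then higher in AC29 and 9 in AB1, and of the matrix partners 10 in AC29 and 6 in AB1. Over all genes tested, 39.1% passed in either direction. With limma's treat against a 2-fold difference, Sparcl1 (-1.19, adjusted p = 1) and Tgfbi (-1.21, adjusted p = 0.576) no longer passed, which leaves 2 members higher in AB1. The counts were then 565 and 672 over all genes, and 1 receptor was higher in AC29 and 3 in AB1. Of the cleavage and crosslinking list, 2 genes were then higher in AC29 and 2 in AB1. Keeping only genes above the floor on at least 3 arrays also left 2 members higher in AB1, and gave no value for Sparcl1 and Tgfbi. Without probe sets ending in _x_at, _s_at or _a_at, 3 of the relatives were called higher in AB1, since fewer genes and probe sets remain.

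When each array was left out in turn, the differences ranged from -2.82 to -2.69 for Thbs1, -5.89 to -5.78 for Thbs2, 0.54 to 0.65 for Thbs3, 0.37 to 0.72 for Tnc, 0.82 to 0.98 for Sparc, -1.34 to -0.94 for Sparcl1, -0.65 to -0.53 for Postn, -0.33 to -0.10 for Fn1 and -1.32 to -1.12 for Tgfbi. The count of members called higher in AB1 was 3 or 4, the 3 without AB1 replicate 5, when Sparcl1 fell under the minimum. No paired analysis was possible because the lines share no replicate number. Signal over background limits Tnc, Postn, Sparcl1 and Tgfbi, which lay near or under the floor.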
